A study of Rattus norvegicus with 12 samples.

Results

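The baseline gene expression of unloaded rat hearts is described here from the 4 control hearts of a study of mechanical load. The study held 12 hearts in all. Genes were sorted by detection. Of 13337 genes with a named probe, 6308 (47.3%) had a detection p under 0.05 on all 4 control arrays, 5422 (40.7%) had none on any array, and 1607 (12.0%) lay between. Counted by probe, named or not, 8516 of 22523 (37.8%) were detected on all 4 arrays and 11295 (50.1%) on none. The detection p sets a probe against the negative control probes of the same array, and it alone chose the classes, so the higher signal of detected genes is no finding. The control hearts came from Sprague-Dawley rats, an outbred stock, and had no loading at any point of the cardiac cycle. Whether the levels below hold for a heart working in the animal was not tested. Expression was read on Illumina bead arrays, where beads carry short probes and labelled RNA copies bind to them. The other hearts of the series were under systolic or diastolic overload and are not compared here. The labels call the tissue heart and give no chamber, age, sex or length of the experiment, and nothing says whether the 4 samples came from separate animals, so the spread between them may be in part technical.

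The heart muscle cell contracts without rest and is filled with mitochondria, which make most of its ATP by burning fatty acids. Its contractile units, the sarcomeres, are built of myosin and actin filaments and are switched on by calcium that the sarcoplasmic reticulum releases and takes back. Endothelial cells, fibroblasts, pericytes, nerves and resident macrophages share the tissue, and a whole-tissue RNA sample mixes them all. In such a sample, fewer cells of a type and less RNA per cell cannot be told apart. Signals below are log2 intensities after background correction and quantile normalization, given for controls 1, 2, 3 and 4 in that order. Ranks count from 1 for the brightest of the 6308 genes detected on all arrays, and the median rank of all these genes is 3154.5. Probes differ in how well they bind, so a rank is a rank of probe signal and not of transcript number.

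Promoter sequence is printed for 6 genes, because detected and undetected genes differed in it, as described further on. The 80 bases before the transcription start are shown, 5′ to 3′, from RefSeq on assembly GRCr8. Cox8b (chr1:205408274-205408353, minus strand), a cytochrome c oxidase subunit of heart and skeletal muscle, and Rplp0 (chr12:46718391-46718470, minus strand), a protein of the large ribosomal subunit, were the 2 among the 20 brightest genes and the sarcomere list, where the table gave 1 promoter, with the letters TATAAA between 40 and 20 bases before the start. The capitals mark those letters.
Cox8b: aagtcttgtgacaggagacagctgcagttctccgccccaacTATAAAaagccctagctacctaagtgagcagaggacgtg
Rplp0: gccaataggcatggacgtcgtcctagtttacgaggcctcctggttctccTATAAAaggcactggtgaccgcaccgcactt
In the next 4 sequences the capitals mark each C followed by G, a pair that is rare in most of the genome and common in promoters that stay unmethylated. These 4 were chosen after their values were seen, as 3 bright genes and the undetected receptor of lowest signal. Atp2a2 (chr12:39733439-39733518, plus strand) encodes the calcium pump of the sarcoplasmic reticulum, and Tpt1 (chr15:57566064-57566143, plus strand) a small, widely expressed growth-related protein. Akr1c12 (chr17:70971413-70971492, minus strand) belongs to the aldo-keto reductases, and Or5g27b (chr3:91076614-91076693, plus strand) to the olfactory receptors.
Atp2a2: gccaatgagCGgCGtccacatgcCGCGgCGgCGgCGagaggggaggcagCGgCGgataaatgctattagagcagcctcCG
Tpt1: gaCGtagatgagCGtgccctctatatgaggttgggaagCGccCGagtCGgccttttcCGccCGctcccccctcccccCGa
Akr1c12: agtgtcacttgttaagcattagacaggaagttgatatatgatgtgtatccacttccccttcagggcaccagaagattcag
Or5g27b: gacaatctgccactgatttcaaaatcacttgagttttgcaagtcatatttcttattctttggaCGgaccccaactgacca
Atp2a2 holds 10 such pairs in this stretch, Tpt1 holds 8, Akr1c12 holds 0 and Or5g27b holds 1. Akr1c12 ranked 6 of all detected genes, so a bright gene can lack them.

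The 4 arrays were alike in how much they detected. Between 6987 and 7149 genes were detected per heart, with the fewest in control 2 and the most in control 4. The raw median intensity was 92.2, 101.9, 95.3 and 115.5. Between 120 and 191 genes were seen in 1 heart alone, and between 69 and 141 were missing from 1 heart alone, with the fewest missing in control 4. Pearson's correlation between hearts, across the 6308 genes, ran from 0.984 to 0.989 over the 6 pairs, where genes are not independent replicates. Just inside the limit, 26 genes shared a largest detection p of 0.0497, the 3 dimmest of which were Actl9, Nod1 and Syce1. Just outside it, 20 genes shared 0.0509, and the 3 brightest of them, Enc1, Tcof1 and Sh3bgrl1, had that p and a signal of 6.00, 5.88 and 5.78, higher than the 5.39 of Actl9.

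**Figure D1:**
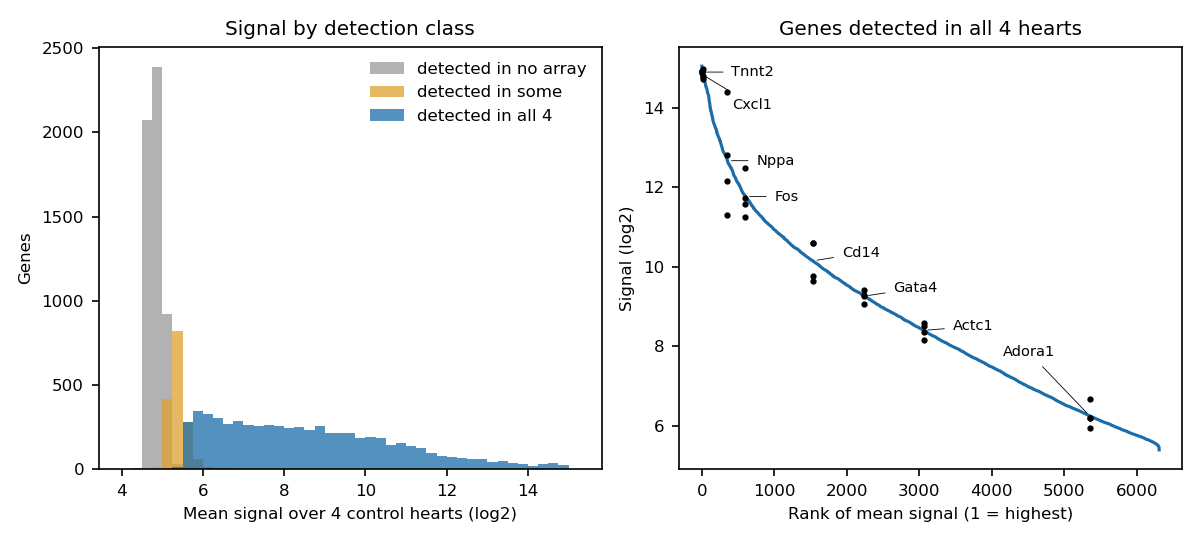
Left, number of genes by mean log2 signal over the 4 control hearts, for genes detected on all, some or none of the arrays; right, mean log2 signal of genes detected on all 4 against rank (line), with the 4 hearts of 8 example genes as points. Genes detected on all 4 spread from 5.39 to 15.05, while those detected on none lie between 4.46 and 5.31, and the points of Nppa lie farther apart than those of Tnnt2.

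Detected genes spanned a wide range of signal. The median was 8.29, with 5% of genes below 5.76 and 5% above 12.83, and the brightest gene reached 15.05. The 20 brightest genes gave 6.35% ± 0.08 (SD, n = 4) of the summed signal of all detected genes. The 100 brightest gave 26.2% ± 0.14 (SD, n = 4), and the 1000 brightest 77.6%. Quantile normalization gives every array the same set of values, so these shares could hardly differ between hearts. Their small SD is therefore no measure of how alike the hearts were. Of the 20 highest ranks, 9 were held by the same genes in every heart, and 88 of the top 100 were. The 20 brightest lay between 14.81 and 15.05, a small step compared with the range of all genes.

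The brightest genes were those of the mitochondrion, the contractile cell and the ribosome. Atp5f1a, the alpha subunit of the ATP synthase that makes ATP in mitochondria, ranked 1 with 15.08, 15.08, 14.98 and 15.04. Atp5me, another subunit of that enzyme, ranked 2 at 15.01. Atp2a2, the calcium pump, followed at rank 3, from 14.82 in control 4 and 14.93 in control 2 to 15.08 in control 3. The other respiratory chain and ATP synthase genes among the first 20 were Cox8b, Atp5f1b, Uqcrh, Cox6a2, Uqcrfs1 and Atp5po. Lipid use was represented there by Acadl, a dehydrogenase of fatty acid oxidation, at 14.94 and by Lpl, which frees fatty acids from circulating lipoproteins, at 14.90. Tnnt2, cardiac troponin T of the thin filament, stood at 14.90 and Ankrd1, a stretch-associated protein of the sarcomere, at 14.87. B2m, the light chain of class I histocompatibility molecules, and Fth1, the heavy chain of the iron store ferritin, were in the same range at 14.89 and 14.87. The remaining genes of the first 20 were Akr1c12, the ribosomal genes Rplp0 and Rpl23a, Tpt1, and the chemokine Cxcl1 at rank 18.

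**Figure D2:**
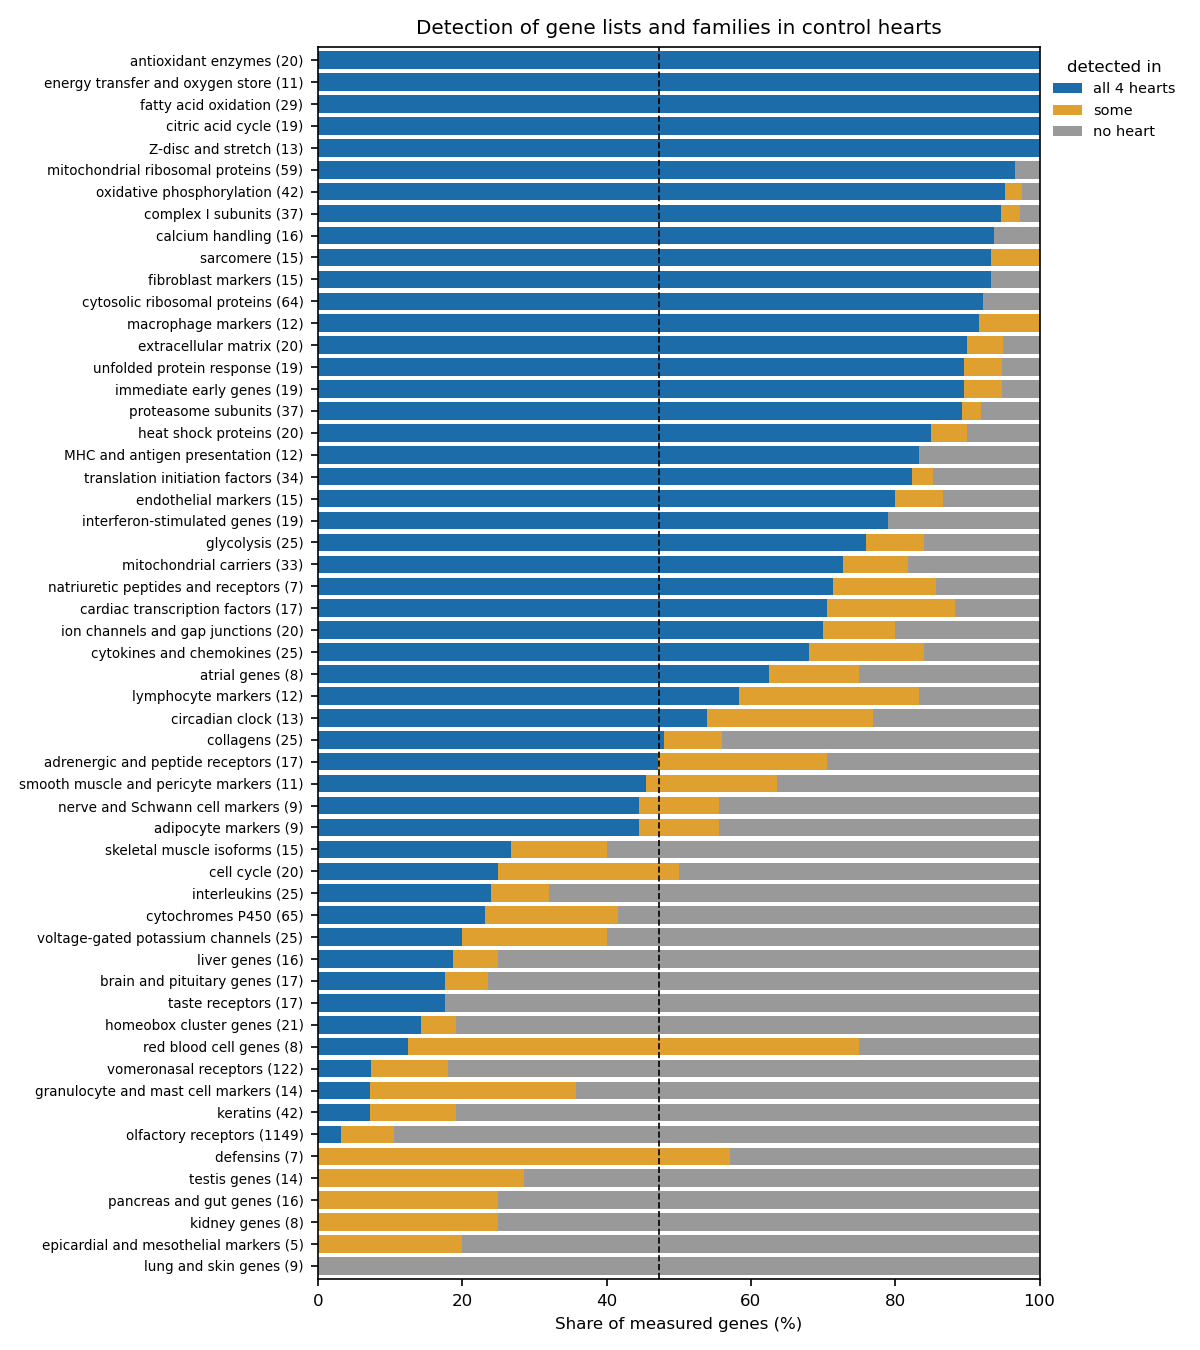
Share of the measured members of each gene list or family (percent, horizontal axis) detected on all, some or none of the 4 control arrays, with the dashed line at the share of all genes detected on all 4. Fatty acid oxidation, the citric acid cycle and the Z-disc reach 100%, while kidney, testis, pancreas and gut, and lung and skin genes are at 0%.

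Genes of oxidative phosphorylation, the citric acid cycle and fatty acid oxidation were detected almost whole, and glycolysis less so. Of 42 measured genes of oxidative phosphorylation, 40 were detected on all arrays, beside 47.3% of all genes, and 39 of the 40 stood in the brightest decile, which holds 9.99% of detected genes. Together they gave 8.32% ± 0.10 (SD, n = 4) of the summed signal, and their median rank was 70. Uqcrc1, a core protein of complex III, read 14.47, 14.47, 14.48 and 14.46. Its range of 1.01-fold was the narrowest of all detected genes after quantile normalization, while its raw intensity ran from 19865 in control 1 to 27046 in control 4. Ndufs4, an accessory subunit of complex I, was detected on none of the arrays. All 19 citric acid cycle genes and all 29 genes of fatty acid oxidation were detected, with median ranks of 322 and 378. The 11 measured genes of energy transfer and oxygen storage, which include creatine kinase and myoglobin, were all detected as well. Glycolysis reached 19 of 25, and the mitochondrial carrier family 24 of 33, with 6 on none and a median rank of 3690.5. The undetected glycolysis genes included Slc2a1, the basal glucose transporter, and Pklr, the liver and red cell pyruvate kinase, while Gapdh and the muscle glucose transporter Slc2a4 were detected. All 20 antioxidant enzymes were detected, at a median rank of 528.

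Cardiac sarcomere genes were detected and most skeletal muscle isoforms were not. Of 15 sarcomere genes, 14 were detected, beside 47.3% of all genes. Of these, 11 stood in the brightest decile, and the 14 gave 2.33% ± 0.10 (SD, n = 4) of the summed signal. The exception, Mylk3, was detected on some arrays. All 13 genes of the Z-disc and its stretch-associated proteins were detected. Myh6, the fast alpha myosin heavy chain of the adult rodent ventricle, averaged 14.69 at rank 35. Myh7, the slow beta chain, averaged 14.80 at rank 22, and since the values come from different probes they do not say which chain was more abundant. Tnni3, the adult cardiac troponin I, read 14.67, 14.53, 14.62 and 14.21, while Tnni1, the troponin I of slow skeletal and fetal cardiac muscle, was detected on none. Acta1, skeletal alpha-actin, which rodent hearts also express, averaged 13.77 at rank 144. Actc1, the cardiac alpha-actin, averaged 8.40 at rank 3060, with a raw intensity of 289 to 555 beside 29414 to 33297 for the Tnnt2 probe, values of different probes that do not order the transcripts. Of 15 skeletal muscle isoforms, 4 were detected on all arrays, at a median rank of 5916, beside 47.3% of all genes. On none were 9 of the 15, including the fast myosins Myh2 and Myh4, beside 40.7% of all genes.

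Of 16 calcium handling genes 15 were detected, and of 20 ion channel and gap junction genes 14 were, beside 47.3% of all genes. The whole family of voltage-gated potassium channels gave 5 of 25, with 15 on none. Gja1, the main gap junction protein of the ventricle, averaged 13.56, Kcnip2, a subunit of the transient outward potassium channel, 12.50, and Atp1b1, the beta subunit of the sodium pump, 12.14. The channel list had 4 genes detected on none, among them Kcnj2, the inward rectifier. Adrenergic and peptide receptors reached 8 of 17, close to the 47.3% of all genes, and Adrb1, the main beta-adrenergic receptor of heart muscle, and Gnaq, a G protein subunit, were among the 5 detected on none. Of 17 cardiac transcription factors 12 were detected, with Gata4, Nkx2-5 and Mef2d among them and Tbx20 and Esrrg on none. A gene detected on none has no signal above this array's background and is not shown to be silent.

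The cytosolic ribosome was the other large block of bright genes. Of 64 cytosolic ribosomal protein genes, 59 were detected, 47 of them in the brightest decile, and they gave 7.29% ± 0.08 (SD, n = 4) of the summed signal. The 5 others, Rps19, Rpl12, Rpl36a, Rpl11 and Rpl34, were detected on none, with means of 5.02, 4.94, 4.71, 4.66 and 4.64, although every cell needs these proteins. Mitochondrial ribosomal proteins reached 57 of 59, proteasome subunits 33 of 37 and translation initiation factors 28 of 34, beside 47.3% of all genes. Their median ranks were 1003, 629 and 1477.5, against 174 for the cytosolic ribosomal proteins. At the other end, 36 of 1149 olfactory receptors (3.13%), 9 of 122 vomeronasal receptors, 3 of 42 keratins and 0 of 7 defensins were detected on all arrays. The detected olfactory receptors had a median rank of 5593.5, and the brightest of them, Or1aa2, averaged 8.33. Without the 1271 olfactory and vomeronasal receptors, 51.9% of the remaining 12066 genes were detected on all arrays and 35.6% on none.

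Genes of other organs were mostly below background. None of 8 kidney genes, 16 pancreas and gut genes, 14 testis genes and 9 lung and skin genes was detected on all arrays, beside 47.3% of all genes. On some arrays, 2 of the kidney genes, 4 of the pancreas and gut genes and 4 of the testis genes were detected. Liver genes gave 3 of 16, namely the iron carrier transferrin (Tf, 10.47), Cyp2e1, a cytochrome P450, at 9.63, and Ttr, a carrier of thyroid hormone, at 8.59, while albumin was detected on none. Brain and pituitary genes gave 3 of 17, of which Pomc, the precursor of pituitary hormones, was the brightest at 7.86. Of 20 cell cycle genes, 5 were detected on all arrays and 10 on none, beside 47.3% and 40.7% of all genes. The brightest, Pcna, also serves DNA repair.

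Fibroblast, macrophage and endothelial markers were mostly detected, while those of granulocytes and of the epicardium were mostly not. Fibroblast markers reached 14 of 15, and Dcn, a proteoglycan of the matrix, averaged 13.78. Endothelial markers reached 12 of 15 with a median rank of 3242, with Cldn5, a tight junction protein, at 10.84 and Emcn at 10.75, and Cdh5, the endothelial cadherin, on none. Macrophage markers reached 11 of 12, with Cd14, a receptor for bacterial lipopolysaccharide, and Aif1 the brightest at 10.15 and 9.93. Lymphocyte markers reached 7 of 12 at a median rank of 4867. Granulocyte and mast cell markers gave 1 of 14, and the abundant neutrophil genes S100a8 and S100a9 were detected on none. Smooth muscle and pericyte markers gave 5 of 11, adipocyte markers 4 of 9, nerve and Schwann cell markers 4 of 9 and epicardial markers 0 of 5, where the first 3 of these shares lie near the 47.3% of all genes.

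Of 8 red cell genes, 1 was detected on all arrays, 5 on some and 2 on none, beside 47.3%, 12.0% and 40.7% of all genes. Without control 3 the count on all arrays was 4, and without control 4 it was 2. Hba-a1, an alpha globin, read 10.18, 8.31, 9.19 and 10.06, a range of 3.66-fold. Hbb, a beta globin, read 8.88, 7.09, 5.21 and 9.38 and was not detected in control 3. Controls 1 and 4 were the higher in both of these globins, while Hba-a2 and Slc4a1, detected on some arrays, ranged over 1.58-fold and 1.59-fold. The globins were picked after their values were seen. It was not tested what share of any signal below came with blood.

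Several chemokines and immediate early genes ranked high in these unloaded hearts. Of 25 cytokines and chemokines, 17 were detected, beside 47.3% of all genes, 7 of them in the brightest decile, with a median rank of 754. The interleukin family, which overlaps that list, went the other way, with 6 of 25 detected on all arrays, 17 on none and a median rank of 3239. Cxcl1, which draws neutrophils, read 14.78, 14.98, 14.80 and 14.74 and hardly differed between the hearts. Ccl2, which draws monocytes, read 14.08, 14.17, 13.36 and 13.56. Cxcl10, an interferon-induced chemokine, read 13.35, 13.46, 12.21 and 12.28, so that controls 1 and 2 lay above controls 3 and 4 for both. Il1b averaged 11.14, while Il6 ranked 3179, Il18 4792 and Tnf, at 6.04, 5628. Of 19 immediate early genes, which respond within minutes to many stimuli, 17 were detected at a median rank of 896. Junb averaged 13.25, Egr1 13.05 and Atf3 12.60, and Fos read 12.48, 11.74, 11.58 and 11.26. Of 20 heat shock genes 17 were detected, while the inducible Hspa1b and Hsph1 were on none. The unfolded protein response list gave 17 of 19.

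After quantile normalization, which gives every array the same set of values, hearts were close to one another for most genes. The SD over the 4 hearts had a median of 0.16 on the log2 scale, with 5% of genes below 0.05 and 5% above 0.46. That median depends on the scaling: it was 0.36 on raw log2 intensity, 0.24 with the array median subtracted and 0.11 on the deposited normalized values. The median range from lowest to highest heart was 1.29-fold, and 1917 genes (30.4%) lay within 1.2-fold. A range above 2-fold was seen in 346 genes (5.49%), and above 4-fold in 45 (0.713%). The median SD was 0.10 in the brightest decile and 0.22 in the second lowest, with 0.19 in the lowest. Controls 3 and 4 had the fewest genes over 2-fold apart, 70, and controls 1 and 3 the most, 159.

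**Figure D3:**
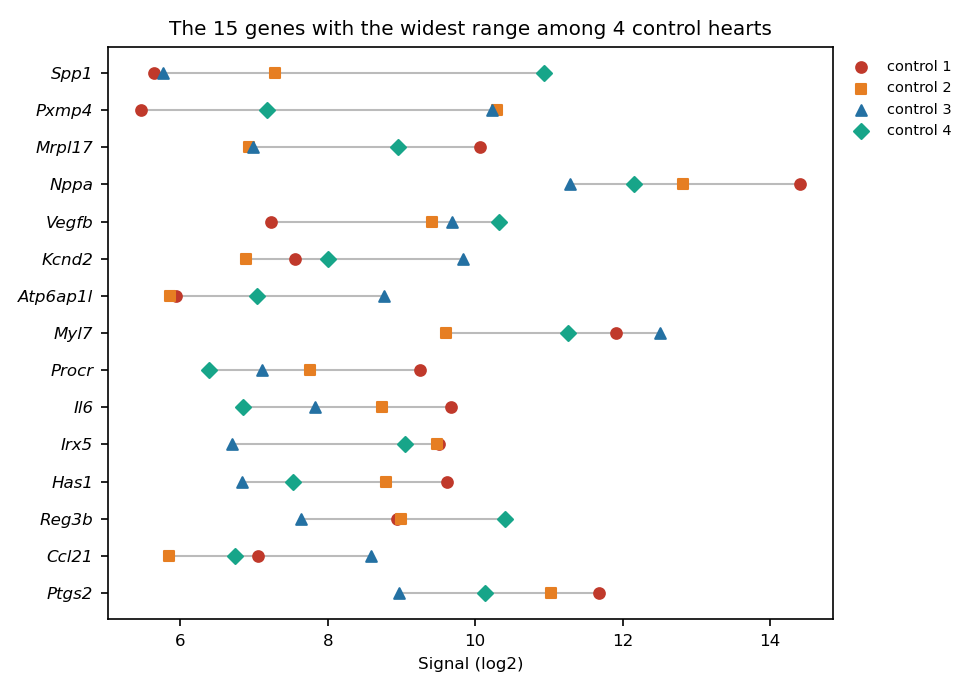
Log2 signal in each control heart (horizontal axis) for the 15 genes with the widest range over the hearts, widest at the top. Spp1 runs from 5.64 to 10.94, a range of 39.3-fold, with control 4 apart from the others.

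The 15 genes with the widest range were of mixed kinds. Spp1, osteopontin, a matrix protein of activated macrophages and fibroblasts, read 5.64, 7.28, 5.76 and 10.94, a range of 39.3-fold with control 4 far above the others. Pxmp4, a peroxisomal membrane protein, read 5.46, 10.29, 10.23 and 7.18, a range of 28.5-fold with controls 2 and 3 high. Il6, an interleukin of the acute phase, read 9.67, 8.74, 7.82 and 6.85. Ptgs2, the inducible prostaglandin synthase, read 11.67, 11.02, 8.97 and 10.14, and Has1, a hyaluronan synthase, 9.61, 8.79, 6.83 and 7.53, so that control 3 was lowest and control 1 highest in both. Vegfb, a vascular growth factor, ran the other way, from 7.23 in control 1 to 10.32 in control 4. Kcnd2, a subunit of the transient outward potassium channel, read 7.56, 6.89, 9.84 and 8.00. Irx5, a transcription factor of the ventricular repolarisation gradient in mouse, read 9.51, 9.49, 6.70 and 9.04. Mrpl17, Atp6ap1l, Procr, Reg3b and Ccl21 were also among the 15, with ranges from 6.64-fold to 8.83-fold. Nppa and Myl7, described below, completed the 15, at 8.67-fold and 7.43-fold. Which genes make up these 15 depends on the scaling and on single hearts: 9 were shared with median scaling, 12 with the deposited normalized values, and 7 to 12 with 1 heart left out, fewest without control 3.

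Of 5 detected atrial genes, 2 had a range above 2-fold, Nppa and Myl7, beside 5.49% of all detected genes. Nppa, atrial natriuretic peptide, read 14.41, 12.82, 11.29 and 12.15, a range of 8.67-fold, with control 1 highest and control 3 lowest. Myl7, the atrial regulatory light chain, read 11.91, 9.61, 12.50 and 11.26, with control 2 lowest and control 3 highest, so the order differed from that of Nppa. The other detected members, Dkk3, Kcnj5 and Nr2f2, ranged over 1.80-fold, 1.58-fold and 1.38-fold. Nppb, the B-type peptide made by both chambers, varied less, with 14.74, 14.66, 14.50 and 14.43. Bmp10 and Tbx18 were detected on none. Of the 14 detected ion channel and gap junction genes, 2 had a range above 2-fold, beside the same 5.49%. They were Kcnd2, at 7.76-fold, and the gap junction protein Gja5, at 2.82-fold. The 2 genes of the list that were detected on some arrays are not among these 14. Hcn4, the pacemaker channel, read 7.75, 7.33, 4.84 and 6.73, and Kcne1, a subunit of the slow delayed rectifier, 7.02, 7.42, 4.78 and 6.83. Both were undetected in control 3 alone, the heart in which Irx5 was also low, and both were picked after their values were seen. The labels do not say which chamber or region each sample held, and its part in these values was not tested.

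**Figure D4:**
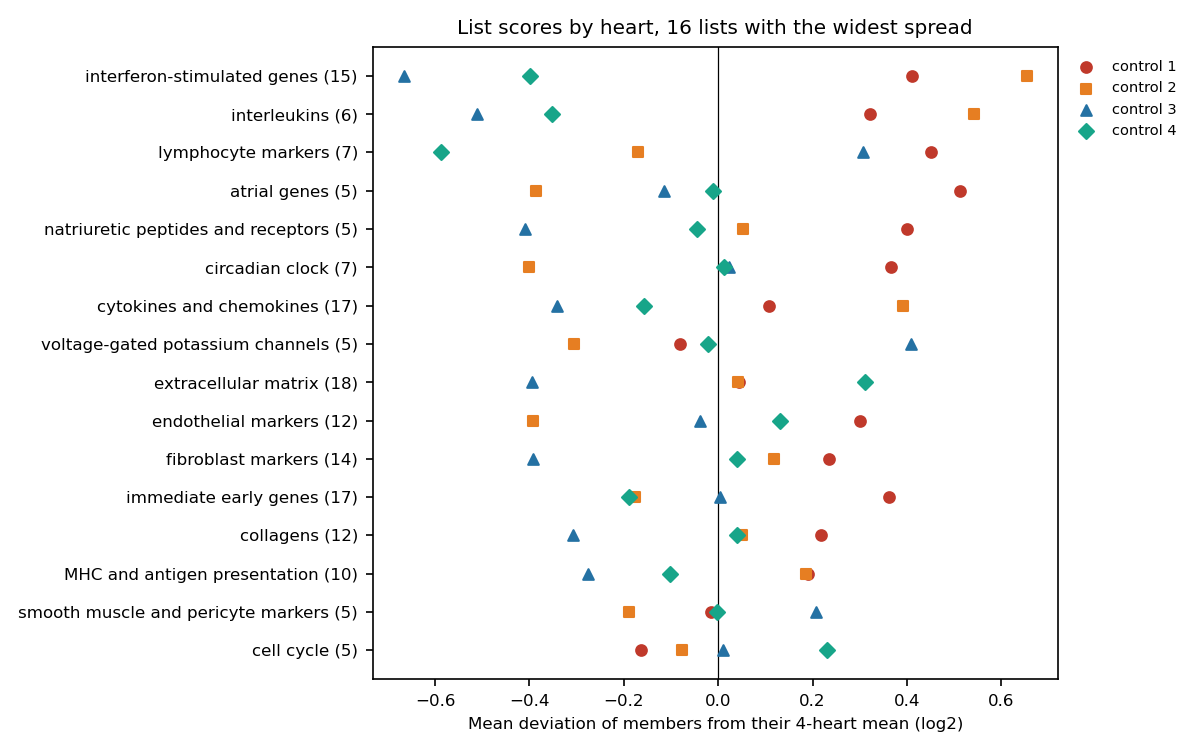
List score of each control heart (horizontal axis, mean log2 deviation of the list's detected genes from their 4-heart means) for the lists that differed most between hearts. For interferon-stimulated genes, control 2 is highest at 0.65 and control 3 lowest at -0.67.

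Several lists had scores that differed between hearts, some with few members past 2-fold. Interferon-stimulated genes, which cells switch on in antiviral responses, gave 15 detected of 19, and 12 of the 15 had a range above 2-fold, beside 5.49% of all detected genes. The mean deviation of the list from its own 4-heart means was 0.41, 0.65, -0.67 and -0.40, so controls 1 and 2 lay above controls 3 and 4, and 14 of the 15 genes were below their own mean in control 3. Mx1, an antiviral GTPase, read 10.87, 11.30, 9.01 and 8.87, and Irf7, a transcription factor of the interferon response, 11.34, 11.40, 9.94 and 9.90. Cytokines and chemokines deviated by 0.11, 0.39, -0.34 and -0.16, with 9 of 17 over 2-fold. Lymphocyte markers had scores of 0.45, -0.17, 0.31 and -0.59. Prf1, which makes pores in target cells, read 9.21, 8.06, 9.25 and 7.86, while Gzmb, a protease of the same cells, read 8.34, 7.67, 7.50 and 5.90 and had control 2 above control 3, against the order of the list. Fibroblast markers were lowest in control 3, at -0.39, with all 14 detected genes below their own mean but 3 of 14 with a range above 2-fold. Extracellular matrix genes, which share 6 of their 18 detected genes with that list, stood at -0.40 there, with 15 below their own mean and 4 of 18 above 2-fold. Circadian clock genes, which cycle over the day, deviated by 0.37, -0.40, 0.02 and 0.01, and 5 of the 7 detected had a range above 2-fold. Per2 read 9.22, 7.91, 9.21 and 10.11, highest in control 4, while the list was highest in control 1. Oxidative phosphorylation, by comparison, stayed within 0.02 of its mean in every heart. However, 39 of its 40 detected genes stood in the brightest decile, where the median SD was lowest, at 0.10. Its score also averages more genes than those of the lists above, so the steadiness is not particular to its function. The labels do not give the hour of sampling or the slide of each array, and the part of either was not tested.

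Detected genes had promoters richer in C and G. The promoter window ran from 250 bases before the start to 50 after it, and all windows of a gene were averaged. The median GC content was 60.7% for 5270 genes detected on all arrays and 53.0% for 4392 detected on none, against 52.3% over the 27457 genes of the promoter table. Receptors carry much of this contrast. With olfactory and vomeronasal receptors left out of both classes the difference fell from 7.67 to 3.67 percentage points, and the undetected genes then had a median GC of 57.0%, CpG observed over expected of 0.51, GGGCGG in 44.5%, TATAAA in 11.7% and AGATAA in 9.76%. Of these 4294 undetected genes 3434 had a promoter, just short of the coverage required here, so these values are given as a description only. CpG observed over expected, the number of CG pairs against that which the C and G content predicts, was 0.77 for genes detected on all arrays, 0.37 for all those on none and 0.42 over the table. The letters GGGCGG, searched on both strands, were in 62.3%, 35.0% and 34.7% of promoters in that order, and TATAAA on both strands in 7.91%, 17.8% and 14.3%. CCAAT hardly differed, with 38.0%, 37.0% and 37.6%. CATTCC was in 11.5%, 13.8% and 13.9%, and AGATAA in 6.34%, 13.7% and 11.3%. Undetected olfactory and vomeronasal receptors, 958 of the undetected genes with a promoter, had a median GC of 35.3%, with GGGCGG in 0.73%. A match is a run of letters and says nothing of a factor's binding.

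**Figure D5:**
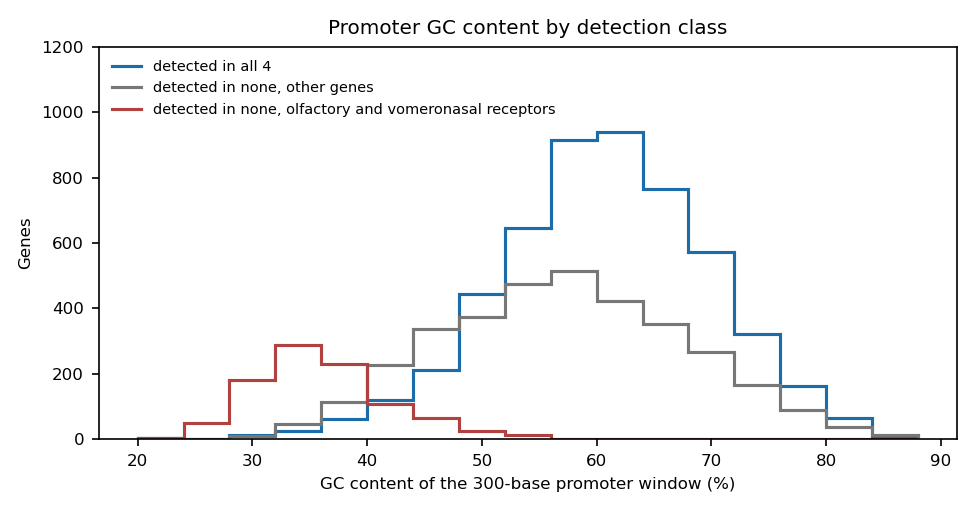
Number of genes (vertical axis) by GC content of the promoter window in percent (horizontal axis), for genes detected on all control arrays, for undetected receptors and for other undetected genes. The receptors form a separate hump with a median of 35.3%, and genes detected on all arrays have a median of 60.7%.

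Within the detected genes, promoter letters also differed with signal and with spread. TATAAA between 40 and 20 bases before the start was in 3.66% of promoters in the brightest decile and in 1.27% of the others detected on all arrays. It was in 6.32% of the 285 genes with a promoter and a range above 2-fold, and in 1.23% of the rest, beside 1.54% of all promoters. TATAAA anywhere in the window was in 19.1% of the wide-range genes and 7.27% of the rest, and CpG observed over expected was 0.51 and 0.78. Which genes range above 2-fold depends on the normalization, and these shares were not worked out under another one.

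By chromosome, the share of genes detected on all arrays ran from 37.3% on chromosome 3 to 58.7% on chromosome 19. Chromosome 3 carries 283 of the measured olfactory and vomeronasal receptors, and without receptors its share was 48.7%. The X chromosome then had the lowest share, 41.5% of 371 genes.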

How the data were processed

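The deposited table gives 1 intensity per probe and array, not normalized per the file headers, and a detection p-value per probe, which moves in steps of 1 in 825. A second deposited table of intensity values, which from its values was quantile normalized, served as an alternative. Neither the labels nor the file headers used here name the authors' software. Gene names came from the platform annotation (13793 of 22523 probes with 1 symbol, 8730 with none). The intensity of the 4 control arrays as deposited was background corrected and quantile normalized by limma 3.58.1 under R 4.3.3 (its neqc function, which adds 16 before the log2), and the log2 signal of a gene is that of its brightest probe among those detected on all arrays. A gene seen on all arrays by different probes was counted as between. A fold is 2 to the log2 difference and understates differences of dim probes. Signal shares are linear signals without the offset, summed over detected genes. Precision is limited by there being 4 hearts.

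There is 1 group, so no groups were compared and no p-value is given beyond detection; single hearts were checked with Dixon's criterion (0.829 for 4 values). Members, lists and families were chosen with earlier results of these data known. Named genes are the 20 brightest genes, the 15 widest and 5 narrowest, 3 on either side of the limit, up to 3 bright and 2 undetected members per list, and some further genes for their role in a list, chosen after their values were seen. Xist, on the fixed list of genes, has no named probe. Promoters are RefSeq's, on GRCr8, used for names and sequence only. Averaging all promoters of a gene was chosen after seeing the data, since genes with 1 promoter covered too few of those on none. Python 3.11.15, pandas 2.3.3 and numpy 2.4.6 were used, and the steps were tested on simulated data. Alternatives were a stricter detection p, other scalings, other probe rules and each heart left out.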

Additional observations from a re-analysis of the deposited data

Results flagged for a closer look

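Of 94 sets of 4 values tested with Dixon's criterion (51 genes, 40 lists and 3 array measures), 6 held a heart far from the other 3 for their range. Chance gives about 1 in 20 for sets chosen without regard to their values. Many of the 51 genes were chosen by signal or range on these arrays, so that rate is no yardstick for them. The criterion sets a gap against the range, so small differences can pass it. Fth1 was high in control 1, at 15.04 against 14.80 to 14.84 in the others. Irx5 was low in control 3, at 6.70 against 9.04 to 9.51. Myh6 was low in control 2, at 14.58 against 14.73 to 14.74. The complex I score was low in control 1, at -0.071 against 0.02 to 0.03. The initiation factor score was low in control 3, at -0.039 against 0.01 in each of the others. The vomeronasal receptor score was low in control 4, at -0.13 against 0.03 to 0.05.

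Signal also appeared in probes that the gene counts leave out. Of 8730 probes without a gene symbol, 2116 (24.2%) were detected on all 4 arrays, against 46.4% of the named probes.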

How the results depend on the processing

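No paired analysis was possible because 1 group was described and nothing was compared. The counts of genes and probes detected on all arrays, and of genes on none, stayed within 1.5 times under every alternative run. A detection p under 0.01 gave 5345 genes on all arrays and 6976 on none, and left 16 olfactory receptors, 4 vomeronasal receptors, 0 keratins, 1 skeletal muscle isoform, 4 lymphocyte markers, 5 adrenergic and peptide receptors and 3 cell cycle genes. The median SD of 0.16 was 0.36 on raw log2 intensity, 0.24 with the array median subtracted and 0.11 on the deposited quantile-normalized values, and ran from 0.15 to 0.16 with 1 heart left out. The share of listed genes detected on all arrays, 65.5%, was 60.5% at a detection p under 0.01, 64.7% when every probe of a gene had to be detected, and 66.5% to 67.3% with 1 heart left out, where fewer arrays must agree. The GC difference between classes of 7.67 percentage points was 6.67 at a detection p under 0.01 and 8 with genes of 1 probe only, and fell to 3.67 without olfactory and vomeronasal receptors, an alternative chosen after seeing the data in which 3434 of 4294 undetected genes had a promoter. Of the 346 genes with a range above 2-fold, 160 were among the 161 of the deposited normalized values and 193 among the 348 with median scaling, so this count depends on the normalization. With 1 heart left out it ran from 213 to 256, fewest without control 1. The 20 brightest genes were the same 20 under the other scalings and shared 17 to 19 with 1 heart left out. The 15 widest shared 9 with median scaling, 12 with the deposited values, 14 with normalization over all 12 arrays and 7 to 12 with 1 heart left out. The choice of probe matters for 137 of 425 genes with several probes, which had 1 probe detected on all arrays and another on none. Dim genes are limited by background.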
